A study of Mus musculus with 12 samples.

Results

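Hepatic stellate cells are the vitamin A-storing pericytes of the liver sinusoid, and 10 genes that mark them or their activation were followed here in whole-liver RNA-seq. They were taken by name from a table of 55401 genes: Lrat, Reln, Hgf, Ngfr, Lhx2 and Hand2 as genes of the resting cell, Des, Pdgfra and Pdgfrb as the filament and growth factor receptors of the cell in both states, and Acta2 as the gene of the activated, contractile cell. All 10 were among the 13205 genes with enough reads to be tested.

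In healthy liver these cells sit between hepatocytes and the sinusoidal endothelium, hold retinyl esters in lipid droplets and secrete growth factors. After injury they lose their retinoid, answer to platelet-derived growth factor (PDGF), acquire smooth muscle actin and lay down fibrillar collagen, and the resulting myofibroblasts are the main scar-forming cells of the liver. Resting markers would be lost and Acta2 gained in a textbook activation, so both kinds of gene are given apart below. In bulk tissue, fewer cells of a type and less RNA per cell cannot be told apart.

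The livers came from 12 female mice aged 15 weeks on a C57BL/6J background, 6 with inducible overexpression of the microRNA Mir483 (iTgMir483) and 6 littermate controls. In iTgMir483 mice an extra Mir483 copy, inserted in Rosa26 under Tet-off control, is transcribed in the absence of doxycycline. By the study's methods the drug was given to the dams of its 15-week mice through pregnancy and then withdrawn, and a CMV-Cre, active in all tissues from soon after fertilization, removed the cassette that blocks the transgene, so stellate cells were not targeted in particular. The labels of all 12 livers, controls included, name the CMV by miR cross, and they give the controls no genotype beyond the word control. Every library matched its label: Mir483 had 0 counts in each of the 6 controls and between 318 and 761 counts in the iTgMir483 livers. The depth was 12244123 to 30431286 counts for a control library and 12415140 to 15846175 for an iTgMir483 library. The replicate 1 libraries of both groups lay away from the others on the second principal component of all tested genes, which held 16% of the variance against 37.4% for the first.

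The mouse Mir483 hairpin gives a pair of mature products, whose sequences (RefSeq, GRCm38, minus strand of chromosome 7) are shown because they are what the transgene adds to the liver. Capitals mark the seed, bases 2 to 8, by which a microRNA pairs with its targets.
mmu-miR-483-3p, chr7:142654932-142654952: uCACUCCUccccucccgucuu
mmu-miR-483-5p, chr7:142654968-142654989: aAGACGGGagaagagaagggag
The letters that pair with these seeds, AGGAGTG and CCCGTCT, were searched on the transcript strand in the longest annotated 3′ untranslated region of each member. These regions ran from 577 bases in Acta2 to 4394 bases in Lrat. None of the 10 held either heptamer, whereas 12.6% of the 12098 tested genes with such a region held the first and 3.26% the second. The search covers these letters in this region and no other kind of pairing.

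Levels below are CPM, the reads of a gene per 1000000 reads of its library after TMM correction for composition, with n = 6 livers a group. A gene was called when its Benjamini-Hochberg adjusted p over all 13205 genes, from edgeR's quasi-likelihood test, was under 0.05 and its fold change over 1.5. By that rule 0 of the 10 members were called, against 11.1% of all tested genes (8.41% higher and 2.73% lower in iTgMir483 livers). The other tools called Ngfr alone (DESeq2, where 12.3% of genes were called) and 0 members (limma-voom, 10.7% of genes). On adjusted p alone 1 member passed, Hgf, beside 18.6% of all genes in either direction and 11.3% in the higher direction. At an unadjusted p under 0.05 there were 3 members, Hgf, Ngfr and Reln, beside 33.4% of genes. The log2 fold change was positive for 9 of 10 members, beside 50.8% of genes, with a median of 0.27 against 0.01 for all tested genes. The groups did not overlap for 1 of the 10 members, beside 7.92% of genes.

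**Figure D1:**
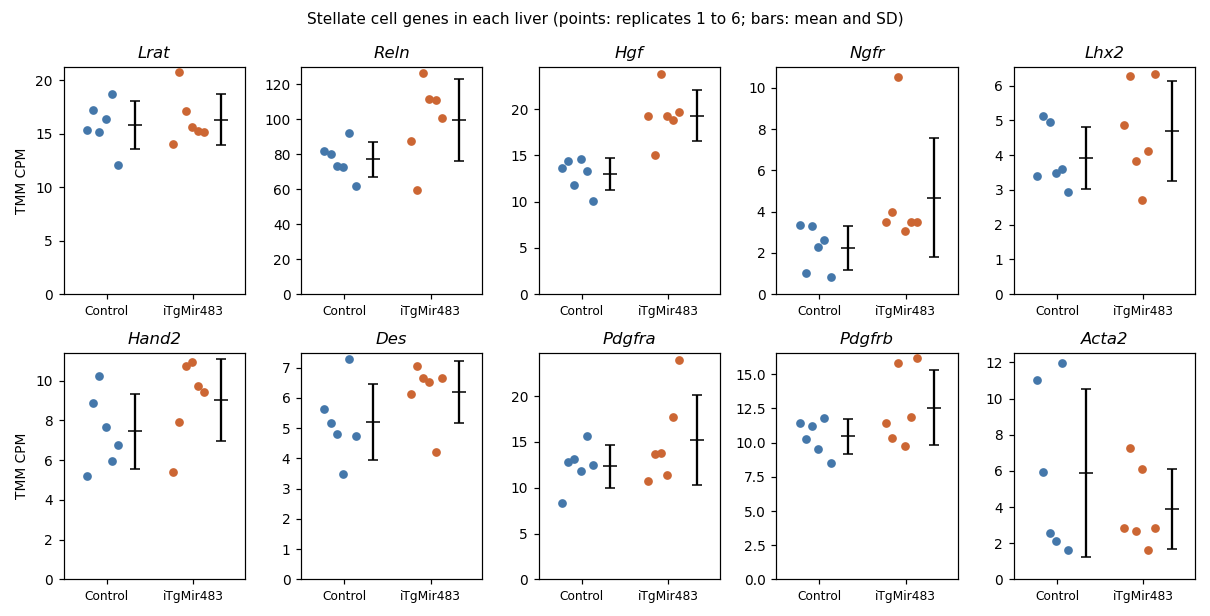
Level of each of the 10 stellate cell genes in every liver, as TMM-scaled CPM on axes that start at 0, with each point a replicate and each bar the mean and SD of 6 livers. The groups are apart for Hgf only, the highest Ngfr point is iTgMir483 replicate 3 at 10.5 CPM, and the Control points of Acta2 spread from 1.65 to 12.0 CPM.

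Lecithin retinol acyltransferase, encoded by Lrat (ENSMUSG00000028003, chromosome 3, 82892579 to 82903973), makes the retinyl esters that fill the stellate lipid droplet. Its level was 12.1 CPM in the lowest control, 15.9 at the median and 18.7 in the highest, and 14.1, 15.4 and 20.8 CPM in iTgMir483 livers. These ranges covered each other almost entirely. The means were 15.8 ± 2.25 CPM in controls and 16.3 ± 2.39 in iTgMir483 livers (SD, n = 6), a log2 fold change of 0.04 ± 0.12 (SE, 95% interval -0.21 to 0.30, edgeR adjusted p = 0.84). That interval runs from a 0.862-fold to a 1.23-fold level. Lrat thus had the smallest change of the 10, and its sign turned without Control replicate 6 (log2 fold change -0.025) and without iTgMir483 replicate 2 (-0.038).

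Hgf (ENSMUSG00000028864, chromosome 5, 16553495 to 16620152) encodes hepatocyte growth factor, the mitogen that stellate cells supply to hepatocytes. The control livers held 10.1 CPM at the lowest, 13.5 at the median and 14.6 at the highest. The iTgMir483 livers held 15.0, 19.2 and 23.8 CPM. Every iTgMir483 liver was therefore above every control. The means were 13.0 ± 1.74 and 19.3 ± 2.80 CPM (SD, n = 6), a log2 difference of 0.57 ± 0.12 (SE, 95% interval 0.31 to 0.83, edgeR adjusted p = 0.00556). The fold change of 1.48 (95% interval 1.24 to 1.77) lay just under the threshold of 1.5, and it crossed that threshold without Control replicate 2, without Control replicate 4, or without iTgMir483 replicate 2. A same-strand gene model, Gm43489, shares 484 exonic bases with Hgf and had at most 3 counts in any library.

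Ngfr (ENSMUSG00000000120, chromosome 11, 95568818 to 95587735) encodes the p75 neurotrophin receptor, a surface protein of stellate cells that nerve sheath cells and portal fibroblasts also carry. It was a low gene, with 9 to 66 counts in controls and 42 to 175 in iTgMir483 livers. The CPM values in controls 1 to 6 were 3.33, 1.03, 3.28, 2.26, 2.61 and 0.823. In iTgMir483 livers 1 to 6 they were 3.49, 3.997, 10.5, 3.08, 3.51 and 3.48. Replicate 3 was high on its own, the other 5 iTgMir483 livers were close together, and 1 of the 6 lay within the range of the controls. The fitted log2 fold change was 1.07 ± 0.38 (SE, 95% interval 0.26 to 1.88, edgeR adjusted p = 0.062), or 0.65 (adjusted p = 0.175) without that replicate. It passed the call under DESeq2 (1.06, adjusted p = 0.0269), and without Control replicate 1 (1.21, edgeR adjusted p = 0.046), with adjusted p from 0.0269 to 0.175 over all 19 alternatives that gave it a value.

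Reelin, from Reln (ENSMUSG00000042453, chromosome 5, 21884454 to 22344702), is a large secreted glycoprotein best known from neuronal migration, and in liver it separates stellate cells from portal fibroblasts. By reads it was the highest member, at 62.1, 76.8 and 92.3 CPM (lowest, median, highest) in controls and 59.7, 106 and 126 CPM in iTgMir483 livers. Of the iTgMir483 livers, 4 exceeded the highest control, and replicate 2 was below the lowest control. The means were 77.1 ± 10.2 and 99.5 ± 23.4 CPM (SD, n = 6), with a log2 fold change of 0.37 ± 0.15 (SE, 95% interval 0.04 to 0.70, edgeR adjusted p = 0.11). Without iTgMir483 replicate 2 the value was 0.48 and the adjusted p 0.0124, still under the fold threshold.

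Lhx2 (ENSMUSG00000000247, chromosome 2, 38339281 to 38369733) and Hand2 (ENSMUSG00000038193, chromosome 8, 57320983 to 57324633) encode transcription factors of the stellate lineage, and Lhx2 is known as a factor that keeps the cells at rest. Lhx2 ran from 2.93 to 5.12 CPM in controls (median 3.55) and from 2.71 to 6.35 CPM in iTgMir483 livers (median 4.51). The lowest Lhx2 value of all 12 livers was thus in an iTgMir483 liver, as was the highest. The log2 fold change of Lhx2 was 0.26 ± 0.22 (SE, 95% interval -0.20 to 0.72, edgeR adjusted p = 0.432).

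Hand2 ran from 5.21 to 10.2 CPM in controls (median 7.21) and from 5.39 to 10.9 CPM in iTgMir483 livers (median 9.58), so its ranges were nearly the same. Its log2 fold change was 0.28 ± 0.19 (SE, 95% interval -0.14 to 0.69, edgeR adjusted p = 0.34). Hand2 shares 461 exonic bases with Hand2os1, a transcript of the opposite strand with 55 to 259 counts a library. The libraries were stranded, but the strand setting of the counting is not given in the sources used here, so reads of the pair may be mixed.

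Des (ENSMUSG00000026208, chromosome 1, 75360329 to 75368579) encodes desmin, the muscle intermediate filament by which rodent stellate cells are commonly stained. It ran from 3.49 to 7.30 CPM in controls (median 4.99) and from 4.20 to 7.07 CPM in iTgMir483 livers (median 6.59). The control range held all 6 iTgMir483 values. The log2 fold change was 0.26 ± 0.18 (SE, 95% interval -0.12 to 0.64, edgeR adjusted p = 0.327). Desmin is also made by striated and smooth muscle. Striated muscle genes were at or near 0: Ckm, Acta1, Myh4, Mb and Tnnt3 had 3 counts or fewer in every library, and their summed level was at most 0.188 CPM. Smooth muscle genes were present, and their sum is given with Acta2 below. Control replicates 5, 1 and 2, the highest controls in Des at 7.30, 5.65 and 5.18 CPM, were also the highest in that sum. In iTgMir483 livers the orders differed. Replicate 4 had the highest sum, 16.2 CPM, and held 6.52 CPM of Des, below replicates 2, 3 and 6. Replicate 2, the highest in Des at 7.07 CPM, was next with a sum of 9.71 CPM. Replicates 3 and 6, each at 6.66 CPM of Des, had sums of 4.74 and 4.03 CPM. The part of smooth muscle in the Des values was not tested.

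Pdgfra and Pdgfrb encode the receptors through which PDGF drives stellate cells to divide and migrate, with Pdgfrb, the receptor for the PDGF-B chain, the one that climbs on activation. Pdgfra (ENSMUSG00000029231, chromosome 5, 75152292 to 75198215) ran from 8.34 to 15.6 CPM in controls (median 12.6) and from 10.8 to 23.9 in iTgMir483 livers (median 13.8). Its log2 fold change was 0.30 ± 0.19 (SE, 95% interval -0.11 to 0.71, edgeR adjusted p = 0.297). Among the iTgMir483 livers, replicates 5 and 6 were above all controls and the other 4 were not.

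Pdgfrb (ENSMUSG00000024620, chromosome 18, 61045150 to 61085061) ran from 8.50 to 11.8 CPM in controls (median 10.8) and from 9.75 to 16.2 in iTgMir483 livers (median 11.7). Replicates 3 and 6 of the iTgMir483 livers were the high ones, at 15.8 and 16.2 CPM. The log2 fold change was 0.27 ± 0.14 (SE, 95% interval -0.04 to 0.57, edgeR adjusted p = 0.211). The upper ends of the intervals of Pdgfra and Pdgfrb correspond to 1.64-fold and 1.49-fold levels.

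Acta2 (ENSMUSG00000035783, chromosome 19, 34241090 to 34255590) encodes alpha smooth muscle actin, which activated stellate cells acquire and which the smooth muscle of vessel walls makes at all times. The CPM values in controls 1 to 6 were 11.04, 5.92, 2.58, 2.12, 12.0 and 1.65. In iTgMir483 livers 1 to 6 they were 2.84, 7.28, 2.70, 6.08, 1.63 and 2.86. The spread among controls covered every iTgMir483 liver except replicate 5, which was just under the lowest control, and Acta2 was the only member with a negative fitted change. That change was -0.60 ± 0.50 on the log2 scale (SE, 95% interval -1.67 to 0.47, edgeR adjusted p = 0.433), which spans 0.314-fold to 1.39-fold. The sign turned to 0.33 (adjusted p = 0.649) when Control replicates 1 and 5, the highest in Acta2, were both left out, an alternative chosen after the values were seen.

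**Figure D2:**
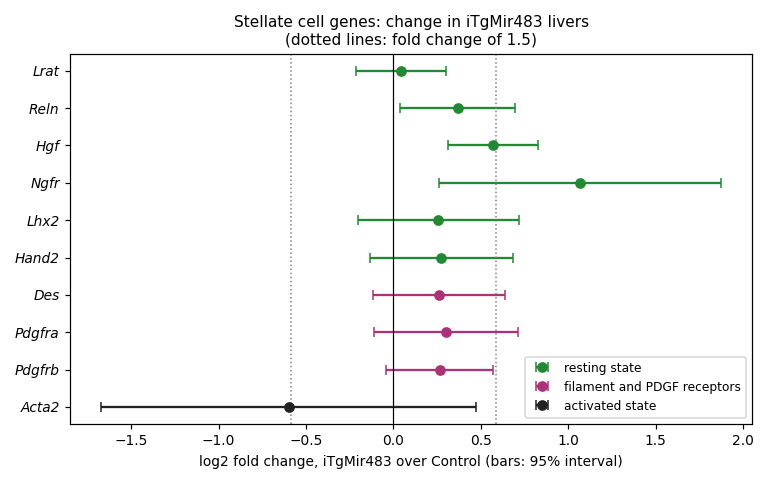
Fitted log2 fold change of each member, iTgMir483 over Control, from edgeR on 6 livers a group, with 95% intervals as bars and dotted lines at a fold change of 1.5. The intervals of Reln, Hgf and Ngfr exclude 0 before adjustment over all genes, and that of Acta2 is the widest, from -1.67 to 0.47.

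Genes of vascular smooth muscle were set beside Acta2 in each liver, since vessel wall is its other source. The list holds Myh11, Cnn1, Actg2, Lmod1, Myocd and Synpo2, smooth muscle genes that stellate cells express little. Of these, 0 of the 3 that were tested were called by edgeR, DESeq2 or limma-voom (0 at an unadjusted p under 0.05, median log2 fold change -0.63). Myh11, smooth muscle myosin and the highest of them, had a log2 fold change of -0.63 (edgeR adjusted p = 0.388). The summed level of the 6 genes in controls 1 to 6 was 20.3, 15.5, 5.51, 5.20, 25.0 and 3.57 CPM. In iTgMir483 livers 1 to 6 it was 6.70, 9.71, 4.74, 16.2, 5.26 and 4.03 CPM. The 6 controls stood in the same order by Acta2 and by the smooth muscle sum, with replicates 5, 1 and 2 highest in both, and the same pair of iTgMir483 livers, replicates 2 and 4, was highest in both. The controls fell into a high and a low set of 3 livers each, so no correlation is given. The part of vessel wall in the Acta2 values was not tested. The adipocyte genes Adipoq and Cfd were also highest in Control replicates 5 and 1, at 0.670 and 0.376 CPM for Adipoq and 1.41 and 0.314 for Cfd. Of the adipose list, 0 of 4 genes were tested and their sum was 0.0697 to 2.28 CPM in controls but 0 to 0.125 CPM in iTgMir483 livers.

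**Figure D3:**
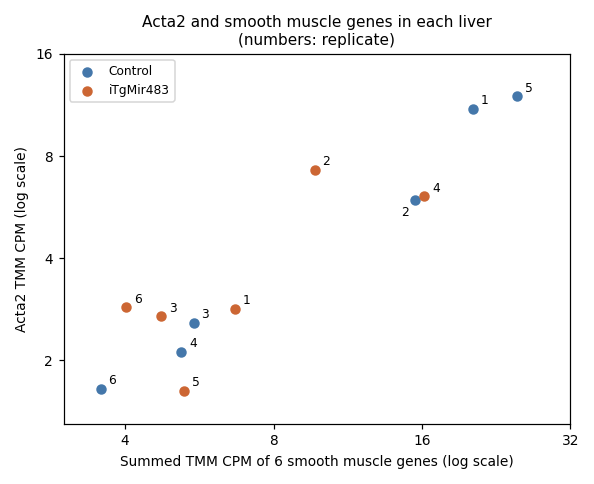
Acta2 against the summed level of 6 smooth muscle genes in each of the 12 livers, both in TMM-scaled CPM on log axes, with the replicate number beside each point. The livers with the highest smooth muscle sums, Control replicates 1, 2 and 5 and iTgMir483 replicates 2 and 4, are also the 5 highest in Acta2.

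The Acta2 promoter is shown because its textbook regulator, serum response factor, acts through CArG boxes. The window is chr19:34255324-34255623 on the minus strand (RefSeq, GRCm38), from 250 bases before the start to 50 after it. A strict CArG box, CC then 6 letters that are each A or T then GG, was not found in it, and 1.63% of 32851 promoter windows held one. A relaxed form with at least 5 of the 6 letters A or T was tried after that, and the window held 2, which begin 84 and 34 bases before the start and are in capitals.
Acta2 promoter: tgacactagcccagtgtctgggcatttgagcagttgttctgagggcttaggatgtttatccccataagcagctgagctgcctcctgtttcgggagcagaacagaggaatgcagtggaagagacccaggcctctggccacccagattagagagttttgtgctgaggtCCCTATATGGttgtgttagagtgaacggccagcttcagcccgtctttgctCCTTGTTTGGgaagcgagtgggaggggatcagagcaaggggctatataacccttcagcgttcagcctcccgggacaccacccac
The relaxed box was found in 9.98% of the windows, both strands being equal for this motif, and among the other members with a window in Lrat only. Of the contractile genes that had a window, Myl9 held 2 relaxed boxes, of which 1 was strict, and Cnn1, Lmod1 and Synpo2 held neither form. A match is a string of letters and not a shown binding site.

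Per kilobase of exon, which allows genes to be ranked by level, the order of the member levels in controls was Reln (3.25 ± 0.43 CPM per kb, SD, n = 6), Hand2 (3.17), Lrat (2.96), Acta2 (2.68), Pdgfrb (1.91), Hgf (1.80), Des (1.38), Pdgfra (1.23), Lhx2 (0.891) and Ngfr (0.645). The lengths count all annotated exons of a gene, so a gene with unused exons ranks too low. Each gene overlapped the next in this order over the 6 controls, so the order of neighbours is not settled. All 10 genes were detected in each of the 12 livers. Sox10, the defining factor of Schwann cells, which share Ngfr, was near 0 at a mean of 0.0401 CPM in controls and 0.0597 in iTgMir483 livers.

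How the members varied together among mice was examined within each group, over 45 pairs of members a group. The correlation of log2 CPM was positive for 34 of 45 pairs in controls (median r = 0.36) and for 26 of 45 in iTgMir483 livers (median r = 0.15). By exact permutation over the 720 pairings of 6 livers, two-sided, 6 of the 90 pairs had an unadjusted p under 0.05. The smallest p was that of Reln and Acta2 in controls, whose 6 livers stood in the same order by both genes (exact permutation p = 0.00139, adjusted 0.125). No r is given for that pair, since the controls fell into a high and a low set by Acta2. Lrat and Reln in controls gave r = 0.893 (Spearman rho = 0.714, exact permutation p = 0.0194 and 0.136, adjusted 0.475 and 0.816), which was 0.135 without the 2 livers farthest from the median of Lrat. Reln and Hgf in iTgMir483 livers gave r = 0.896 (rho = 0.714, exact permutation p = 0.0208 and 0.136, adjusted 0.475 and 0.816), and 0.786 without the 2 farthest. No pair passed the correction, and Lrat with Reln and Reln with Hgf were named for the largest r among pairs without Acta2.

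A wider list of 13 resting stellate genes had 1 called, Tcf21, beside the 8.41% of all genes called higher, and a median log2 fold change of 0.28. The change was positive for 9 of the 13, beside 50.8% of all tested genes. Those below 0, named after their values were seen, were Gata6 (-0.29, edgeR adjusted p = 0.357), Ecm1 (-0.19, edgeR adjusted p = 0.222), Gata4 (-0.07, edgeR adjusted p = 0.708) and Bambi (-0.06, edgeR adjusted p = 0.827). Tcf21, a transcription factor of mesenchymal progenitors and resting stellate cells, ran from 3.70 to 5.18 CPM in controls (median 4.09) and from 6.02 to 8.76 CPM in iTgMir483 livers (median 6.73). The groups did not overlap, and the log2 fold change was 0.69 ± 0.14 (SE, 95% interval 0.39 to 0.98, edgeR adjusted p = 0.00435). Cygb, cytoglobin, which in liver is a stellate gene, was named after its values were seen: its log2 fold change was 0.51 (edgeR adjusted p = 0.0241) with a fold under 1.5. Dcn, the proteoglycan decorin and the highest uncalled gene of the list, had 225 ± 27.4 CPM in controls and 252 ± 21.5 in iTgMir483 livers (SD, n = 6, log2 fold change 0.16, edgeR adjusted p = 0.287).

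Of 15 activation and myofibroblast genes, 13 were tested, and 3 were called, all higher in iTgMir483 livers, beside the 8.41% of all genes called higher, with a median log2 fold change of 0.52. Fbn1, the microfibril protein fibrillin 1, rose by 0.89 ± 0.16 on the log2 scale (SE, edgeR adjusted p = 0.00231), from 3.90 to 5.23 CPM in controls to 5.97 to 11.1 CPM, without overlap. Loxl2, a collagen cross-linking oxidase, rose by 0.83 (edgeR adjusted p = 0.0281), and Thbs2, the matrix protein thrombospondin 2, by 0.68 (edgeR adjusted p = 0.0324), both with overlap between groups. Fbn1 was the only 1 of the 3 that passed in every leave-one-out fit, and without Control replicate 4, Control replicate 6 or iTgMir483 replicate 3 it was the only gene of the list called. Col3a1, the type III collagen chain with the highest mean over all 12 livers among the uncalled genes, held 18.4 ± 8.99 CPM in controls and 30.3 ± 8.51 in iTgMir483 livers (SD, n = 6, log2 fold change 0.72, edgeR adjusted p = 0.0759). The fibrillar collagen genes Col1a1 and Col1a2, named after their values were seen, and Col3a1 all joined the called genes when both replicate 1 libraries were left out (6 of 13 called) or when Control replicates 1 and 5 were (5 of 13 called). The contractile genes of the list, named after their values were seen, had negative values like Acta2 and were not called: Tagln -0.26 (edgeR adjusted p = 0.551), Myl9 -0.25 (edgeR adjusted p = 0.683) and Tpm2 -0.60 (edgeR adjusted p = 0.271). Without iTgMir483 replicate 5, Tpm2 was called lower.

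The partners of the members were taken by pathway, and each count of genes called higher below stands beside the same 8.41% of all tested genes. Among the 4 PDGF ligands, Pdgfa and Pdgfb were called higher in iTgMir483 livers. Pdgfb, the main ligand of the stellate receptor Pdgfrb, ran from 1.13 to 1.74 CPM in controls and from 1.76 to 3.10 CPM in iTgMir483 livers without overlap (log2 fold change 0.79 ± 0.19, SE, edgeR adjusted p = 0.0122). Pdgfa ran from 2.56 to 4.39 CPM and from 3.93 to 10.7 CPM (1.05 ± 0.23, SE, edgeR adjusted p = 0.00647). Pdgfc had a log2 fold change of -0.36 and Pdgfd of 0.39 (edgeR adjusted p = 0.444 for each). Thus 2 of the 4 ligand genes and neither receptor gene were called, and the difference between these changes was not tested.

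In the hepatocyte growth factor pathway 2 of 7 genes were called, both higher and both of the membrane-bound proteolysis that activates or restrains the factor. St14, the protease matriptase, rose by 1.56 ± 0.25 on the log2 scale (SE, edgeR adjusted p = 0.00139), from 0.753 to 1.81 CPM in controls to 2.18 to 4.62 CPM. Spint1, an inhibitor of such proteases, rose by 1.16 (edgeR adjusted p = 0.00876). Spint2, a related inhibitor named after its values were seen, had 39.2 ± 4.11 CPM in controls and 42.0 ± 4.33 in iTgMir483 livers (SD, n = 6, log2 fold change 0.10, edgeR adjusted p = 0.495). St14 and Spint1 are also epithelial genes, and in the bile duct list Epcam (1.41, edgeR adjusted p = 0.0049) and Krt7 (1.34, edgeR adjusted p = 0.00888) were called higher. That list had 2 of 4 tested genes called and a summed level of 4.85 to 8.09 CPM in controls and 7.18 to 14.3 in iTgMir483 livers, and its part in the St14 and Spint1 values was not tested. Sox9, the highest uncalled gene of the duct list, had a log2 fold change of 0.26 (edgeR adjusted p = 0.425). Met, the receptor of the growth factor, held 89.4 ± 15.6 CPM in controls and 84.6 ± 12.9 in iTgMir483 livers (SD, n = 6, log2 fold change -0.08, 95% interval -0.36 to 0.20, edgeR adjusted p = 0.712). Hpn, the protease hepsin, had a log2 fold change of 0.01 (edgeR adjusted p = 0.963). Hgfac, the circulating activator of the factor, was named after its values were seen and had 0.42 (edgeR adjusted p = 0.0235) with a fold under 1.5.

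Of the reelin receptors, Vldlr rose by 1.24 ± 0.31 on the log2 scale (SE, edgeR adjusted p = 0.0142), from a median of 13.7 CPM in controls to 39.1 in iTgMir483 livers, with ranges of 9.27 to 32.04 and 13.5 to 53.9 CPM that overlapped. Vldlr also takes up lipoprotein. Lrp8, the other receptor, and Dab1, their adaptor, were too low to be tested, with Lrp8 at 0.220 CPM or less. Among the neurotrophins and partners of p75, 1 of 4 tested genes was called: Bex3, a p75-interacting protein, rose by 0.82 (edgeR adjusted p = 0.0406). Sort1, sortilin, a partner of p75 that hepatocytes use in lipoprotein secretion, had a log2 fold change of 0.03 (edgeR adjusted p = 0.948).

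Around Lrat, 12 of 15 genes of retinoid handling were tested, 1 was called higher and 1 lower, and the median was -0.07. Rbp4, the hepatocyte protein that carries retinol in blood, fell by 0.64 on the log2 scale (SE 0.16, edgeR adjusted p = 0.0141), from a median of 4156 CPM to 2715. Rdh11, a retinal reductase that is not particular to stellate cells, rose by 1.04 (SE 0.25, edgeR adjusted p = 0.0101). Aldh1a1, a retinaldehyde dehydrogenase, had a log2 fold change of -0.19 (edgeR adjusted p = 0.616). Pnpla3, named after its values were seen, was too low to be tested, with 1 to 6 counts in controls and 9 to 14 in iTgMir483 livers. In the fit without the filter on low counts it had 1.94 (edgeR adjusted p = 0.00684). Aldh1a2, also untested, had 0.25 in that fit (edgeR adjusted p = 0.83).

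**Figure D4:**
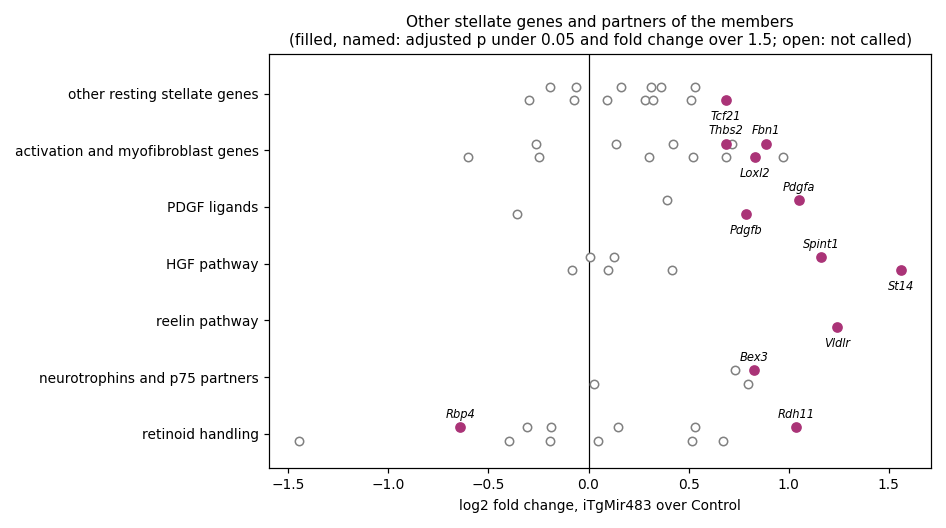
Fitted log2 fold change, iTgMir483 over Control, of every tested gene in 7 lists around the members, each point a gene and the vertical offset within a list carrying no meaning. Filled, named points were called, and Rbp4 is the only filled point below 0.

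Markers of the cells that surround the stellate cell moved to different extents, and their part in the member values was not tested. Kupffer cell genes had 4 of 5 called higher (Adgre1 1.13, Timd4 1.10, Cd5l 1.03 and Clec4f 0.72 on the log2 scale, edgeR adjusted p between 0.00814 and 0.0202), with Vsig4 uncalled at 0.54 (edgeR adjusted p = 0.0527). Their summed level was 211 to 323 CPM in controls and 326 to 872 in iTgMir483 livers, without overlap. Portal fibroblast genes had 3 of 7 tested called higher: Gas6, a ligand of TAM receptors that many liver cells make (1.67 on the log2 scale, edgeR adjusted p = 0.000208), Cd34 (1.20, edgeR adjusted p = 0.00491) and Entpd2 (1.20, edgeR adjusted p = 0.00498). Eln, elastin, had 0.53 (edgeR adjusted p = 0.166). Thy1, the usual marker of these cells, and Mfap4, both named after their values were seen, had -0.18 (edgeR adjusted p = 0.657) and -0.08 (edgeR adjusted p = 0.887). The summed level was 50.9 to 89.6 CPM in controls and 130 to 279 in iTgMir483 livers, of which Gas6 made the larger share.

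Sinusoidal endothelium, which also makes Hgf, had 0 of 6 genes called by edgeR, DESeq2 or limma-voom (2 at an unadjusted p under 0.05) and a median of -0.01, with summed levels of 260 to 301 and 240 to 352 CPM. Stab2, the scavenger receptor stabilin 2 and the highest of them, had a log2 fold change of 0.10 (edgeR adjusted p = 0.516). Pecam1 and Cdh5 were named after their values were seen. They had 0.42 (edgeR adjusted p = 0.0239) and 0.43 (edgeR adjusted p = 0.0728), each with a fold under 1.5. The change was positive for 3 of the 6 genes. Mesothelium had 0 of 2 tested genes called (Msln 0.36, edgeR adjusted p = 0.613), with the same count by DESeq2 and limma-voom and none at an unadjusted p under 0.05. Of 5 hepatocyte genes 1 was called, Cps1, which fell by 1.21 on the log2 scale (edgeR adjusted p = 0.00476), and Alb had -0.56 (edgeR adjusted p = 0.16). The summed hepatocyte level was 115600 to 163800 CPM in controls and 54540 to 127300 in iTgMir483 livers. After TMM correction the median log2 fold change of all tested genes was 0.01.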

How the data were processed

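The 12 whole-liver libraries (TruSeq mRNA, stranded per the study's methods) were multiplexed and sequenced. The authors aligned reads with STAR to GRCm38 (Ensembl annotation) and deposited raw gene counts, and the strand setting of counting is not given in the sources used here. Of 55401 identifiers, 55141 had a symbol in GENCODE M21, an annotation of the same build from another release, which also gave positions, exon lengths and untranslated regions. The number of entries that named no gene was 0.

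Genes were filtered with filterByExpr, scaled by TMM and tested with edgeR 4.0.16 in R 4.3.3 (glmQLFit, glmQLFTest, 6 against 6 livers, no covariate), with Benjamini-Hochberg adjustment over 13205 genes. The fits were tested on simulated data with known changes. There DESeq2, used here as an alternative only, called more unchanged genes than its nominal rate. DESeq2 1.42.0, limma-voom (limma 3.58.1), other scaling and filters, a replicate block, and leave-one-out fits were alternatives. Called meant adjusted p under 0.05 and fold change over 1.5. Each edgeR standard error is the absolute log2 fold change over the square root of the F statistic of its test. The 95% intervals come from these errors. The labels number the livers of a group as replicates. The p-values set the difference between the groups against the spread between these mice. No 2 libraries of a group agreed within counting noise (smallest chi-square per gene 14.3).

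Members and lists were chosen with earlier results of these data known. All members, Mir483, the PDGF ligands, Met, Vldlr and Lrp8 were named, and from each list up to 4 called genes with the largest change and the highest uncalled gene. Ngfrap1, an older symbol of Bex3, was listed beside it and found no entry of its own. Same-numbered replicates correlated in their deviations by 0.440, 0.042, 0.038, 0.034, 0.167 and 0.053 for numbers 1 to 6, so the numbers were not taken to pair the samples.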

Additional observations from a re-analysis of the deposited data

Results flagged for a closer look

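In 20 groups of 6 values (10 members in 2 groups of livers), 2 values stood farther from the other 5 than Dixon's 95% critical ratio for 6 values, where chance gives about 1. Ngfr in iTgMir483 replicate 3 had a ratio of gap to range of 0.876: it was at 10.5 CPM (175 counts) against 3.08 to 3.997 CPM in the other 5 livers of its group. Des in iTgMir483 replicate 5 had a ratio of 0.668, at 4.20 CPM against 6.11 to 7.07 CPM in the other 5, and it was the low value of its group. The cause of neither was tested.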

How the results depend on the processing

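Of 199 alternative values of single members, 191 kept their direction and their side of the adjusted p threshold of 0.05. Hgf stayed past it in all 20 alternatives (log2 fold change 0.50 to 0.63, adjusted p 0.00039 to 0.0169). Lrat turned sign without Control replicate 6 (-0.025) and without iTgMir483 replicate 2 (-0.038), over a leave-one-out range of -0.038 to 0.093. Acta2 turned to 0.33 without Control replicates 1 and 5, an alternative added after seeing the data. The number of members called moved from 0 to 1 under DESeq2, under the replicate block, and without both replicate 1 libraries (Ngfr each time), to 1 with no fold threshold and without Control replicates 1 and 5 (Hgf each time), and ranged from 0 to 1 over the leave-one-out fits. Ngfr passed under the replicate block (log2 fold change 1.04, adjusted p = 0.0305) and without both replicate 1 libraries (1.29, adjusted p = 0.0428), and had no value when 10 counts were asked of every library. The numbers were not taken to pair the samples, and the block moved no other member's call. The count of activation genes called, 3, was 6 without both replicate 1 libraries, 5 without Control replicates 1 and 5, and 1 to 5 over the leave-one-out fits, all higher except without iTgMir483 replicate 5, where 1 was higher and 1 (Tpm2) lower. The count of wider resting genes called, 1, was 2 without both replicate 1 libraries, without Control replicates 1 and 5, and with no fold threshold, Cygb being added. Without the fold threshold 2457 genes of the whole table passed (1489 higher and 968 lower) against 1470. The causes of these moves were not tested. Ngfr, Lhx2 and Acta2 fell under 40 counts in some libraries, which limits them most.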
